A study of Mus musculus with 3 samples.

Results

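The genes of the mitochondrial respiratory chain were followed through single-cell RNA-seq of mouse ovary. They were chosen by symbol: all rows of the deposited table that start with Nduf, Uqcr, Cox4 to Cox8 or Atp5, or with Sdh and one of the letters a to d, with the 13 protein-coding rows of the mitochondrial genome. This gave 111 of 24958 rows, 98 from nuclear genes and 13 with the prefix mt-, and each was seen in at least 10 cells, so that 0 rows were dropped. They took up 6.60% of the 240030587 UMIs of the table, with 6011506 UMIs of nuclear and 9824229 UMIs of mt- rows. A UMI is a molecular barcode that marks 1 captured transcript. By their names the nuclear rows comprise 39 subunits and 8 assembly factors of complex I, 4 subunits and 4 assembly factors of complex II, 8 subunits of complex III, 18 of complex IV and 17 of complex V.

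The labels describe 3 libraries of *Mus musculus* ovary, made on the 10X Genomics platform and collected 0, 1 and 6 h after injection of hCG, which stands in for the LH surge that brings on ovulation. The study's methods describe ovaries of 21-day-old Kunming mice taken 48 h after PMSG, which makes follicles grow, and whether this held for all 3 libraries is not stated. How many ovaries went into a library is not given in the sources used here. The cell barcodes end in 1, 2 or 3, and no source ties an ending to a time point, so cells are grouped as barcode sets 1, 2 and 3, and no time point is given to a set. With 1 library per time point there are no replicates and no test was possible, so the intervals below cover counting error only and say nothing of the spread between animals.

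Complexes I to IV pass electrons from NADH and succinate to oxygen, complexes I, III and IV pump protons across the inner mitochondrial membrane, and complex V, the ATP synthase, uses the proton gradient to make ATP. Most subunits are encoded in the nucleus and imported, whereas a small core of complexes I, III, IV and V is encoded by mitochondrial DNA and transcribed inside the organelle as long precursors that are cut into mRNAs. Complex II is wholly nuclear. In the ovary, mitochondria also hold the side-chain cleavage enzyme that starts steroid synthesis, and theca and luteal cells are rich in them.

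The table held 31776 cells, 10384, 9917 and 11475 in sets 1, 2 and 3, with median depths of 6093, 6352 and 6524 UMIs. No deposited cell had 10% or more of its UMIs in mt- rows, and 585 cells lay between 9% and 10%, so that levels of mt- rows are those of cells below this limit. The sets shared 27 to 46 barcodes in pairs. Cells were assigned to a class where at least 3 markers of its list were detected and the share detected exceeded that of every other list by 0.15. This gated 65.0% of cells, and 6 classes had at least 50 cells in every set. The granulosa-like class (1526, 1917 and 902 cells) had *Amh* among its 3 leading genes by fold in each set and holds only some of the GCs, since the ungated cells had *Inha* at 29.5 to 49.1 UMIs per 10000 against 25.2 to 51.9 in the granulosa-like class. The cells gated by the theca list (1661, 775 and 1360) had *Cyp17a1* at 31.7, 34.8 and 8.52 UMIs per 10000 in sets 1, 2 and 3 but also *Inha* at 16.8, 24.7 and 23.0, so they are called steroidogenic cells. The other classes are stroma-like (10070 cells), endothelial-like (1562), myeloid-like (344) and smooth muscle-like (322), the last with *Acta2* at 129 to 172 and the pericyte marker *Rgs5* at 24.6 to 41.5 UMIs per 10000. The smooth muscle-like class was gated by a joint list of smooth muscle and pericyte markers, so it can hold both kinds of cell. Among the 10 leading genes of each class in each set, 0 were markers of another class. The gate selects for this, since it asks that the other lists be less detected. *Amh*, *Inha*, *Cyp17a1*, *Acta2* and *Rgs5* are themselves on the marker lists, so their levels in their own classes are no independent check. *Cyp17a1*, which macrophages lack, stood at 0.295, 0.245 and 0.0851 UMIs per 10000 in the myeloid-like cells. Levels of this order can thus be free RNA for a gene as abundant in another class as *Cyp17a1*, and free RNA of other genes was not measured.

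The levels below are UMIs of a gene, or of a group of genes, summed over the cells of a class and set, per 10000 UMIs of the same cells. They were not divided by transcript length, and each gene is compared with itself between cells. Of all classes, smooth muscle-like cells had the highest summed level of the nuclear rows and stroma-like cells the lowest, and this held in each of the 3 sets. The nuclear rows stood at 343, 340 and 316 in smooth muscle-like cells of sets 1, 2 and 3 and at 208, 198 and 229 in stroma-like cells. In steroidogenic cells the values were 313, 275 and 275, and in granulosa-like cells 260, 240 and 271. Endothelial-like cells lay at 220, 230 and 247 and myeloid-like cells at 218, 214 and 238. By the median cell of set 3, myeloid-like cells (224.1) lay below stroma-like cells (229). Against granulosa-like cells of the same set, the nuclear level averaged 1.30-fold in smooth muscle-like cells (1.32, 1.41 and 1.17 in sets 1, 2 and 3) and 0.823-fold in stroma-like cells (0.800, 0.824 and 0.845). In steroidogenic cells it averaged 1.12-fold, with 1.21 in set 1, 1.15 in set 2 and only 1.02 in set 3. The steroidogenic class thus stood above the granulosa-like class in sets 1 and 2 and close to it in set 3. The class was mixed in every set. Its 361, 175 and 839 cells with no *Cyp17a1* UMI in sets 1, 2 and 3 had nuclear levels of 272, 248 and 262 and mt- levels of 523, 537 and 347. Its 940, 419 and 336 cells with at least 2 had 333, 295 and 294 and 601, 639 and 514, higher in each set, and they were the fewest in set 3. The median depth was 9852, 8329 and 6673 UMIs in steroidogenic cells and 5948, 6844 and 7630 in granulosa-like cells. Cells with more UMIs also pass the cut at 2 *Cyp17a1* UMIs more readily. The part of depth in these differences was not tested.

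The mt- rows followed another order, in which steroidogenic cells were the highest in pooled sums. Their summed level was 574, 593 and 409 in steroidogenic cells, 451, 509 and 365 in granulosa-like cells and 421, 518 and 342 in smooth muscle-like cells. It was 351, 399 and 289 in myeloid-like, 325, 400 and 317 in endothelial-like and 328, 379 and 267 in stroma-like cells. By the median cell, steroidogenic cells of set 3 (341.5) lay below granulosa-like cells (359.1). Against granulosa-like cells, the mt- level averaged 1.18-fold in steroidogenic cells (1.27, 1.16 and 1.12), 0.734-fold in stroma-like cells (0.729, 0.745 and 0.729) and 0.789-fold in endothelial-like cells (0.722, 0.786 and 0.867). In smooth muscle-like cells it averaged 0.962-fold (0.935, 1.02 and 0.936), a value that lay on either side of 1. The RNA of the 2 genomes was thus not in 1 proportion across classes.

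There were more mt- than nuclear UMIs in every class and set, and in pooled sums smooth muscle-like cells had the fewest for each nuclear UMI. In granulosa-like cells 1.73, 2.12 and 1.35 mt- UMIs were counted per nuclear UMI in sets 1, 2 and 3. Steroidogenic cells had 1.83, 2.15 and 1.49, whereas smooth muscle-like cells had 1.23, 1.52 and 1.08. Stroma-like cells had 1.58, 1.92 and 1.16, endothelial-like cells 1.48, 1.74 and 1.28, and myeloid-like cells 1.61, 1.87 and 1.21. By the median cell of set 3, smooth muscle-like cells (1.145) lay above stroma-like (1.108) and myeloid-like cells (1.087). Relative to granulosa-like cells of the same set, the ratio was 0.742-fold in smooth muscle-like cells (0.709, 0.719 and 0.802), 0.873-fold in endothelial-like cells (0.852, 0.822 and 0.950), 0.893-fold in stroma-like cells (0.911, 0.905 and 0.863) and 1.06-fold in steroidogenic cells (1.06, 1.02 and 1.10). The last value turned by the median cell, with 1.293 in steroidogenic and 1.336 in granulosa-like cells of set 3. In all 6 classes set 2 had the highest ratio and set 3 the lowest, and no 2 intervals of the sets overlapped within a class. The luteal-like cells, compared in set 3 alone (141 cells), had a nuclear level of 264, an mt- level of 318 and a ratio of 1.20, below both the granulosa-like and the steroidogenic cells of that set.

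**Figure D1:**
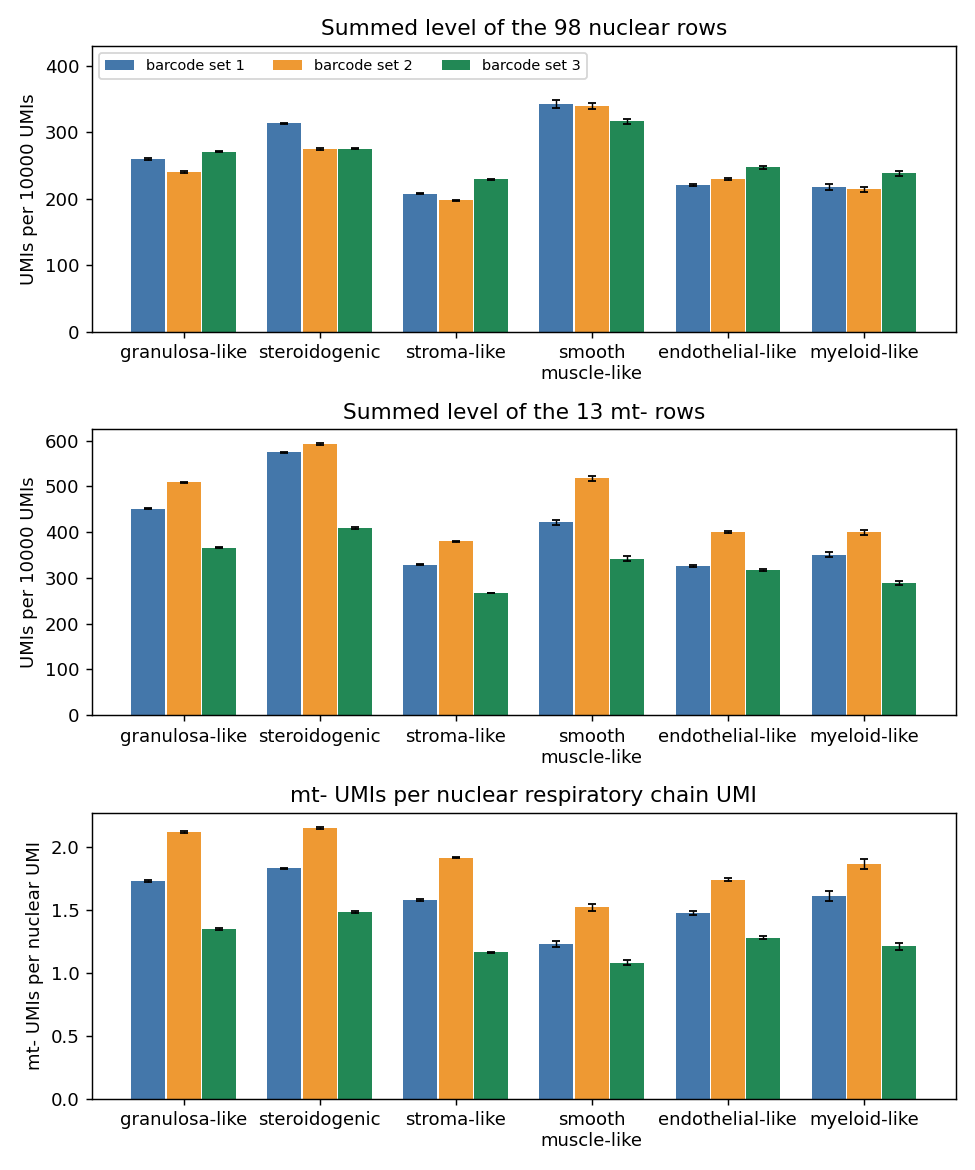
Summed level of the 98 nuclear rows (top) and the 13 mt- rows (middle) in UMIs per 10000 UMIs, and mt- UMIs per nuclear UMI (bottom), for 6 marker-gated classes in barcode sets 1, 2 and 3. Bars are pooled over cells and lines are 95% counting intervals; smooth muscle-like cells stand highest at the top and lowest at the bottom, and set 3 is lowest in every class in the middle and bottom panels.

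Between barcode sets, the mt- total was lowest in set 3. Over all cells the nuclear rows stood at 263, 235 and 251 UMIs per 10000 in sets 1, 2 and 3, and the mt- rows at 446, 472 and 322. The mt- level of set 3 was 0.721-fold that of set 1 (95% interval 0.720 to 0.722), and that of set 2 was 1.06-fold (1.06 to 1.06). The nuclear level of set 2 was 0.896-fold that of set 1 (0.894 to 0.898), and that of set 3 was 0.956-fold (0.954 to 0.958). Both comparisons share the cells of set 1. The last value has no steady direction, since the mean over cells gave 1.02 in place of 0.956, and within classes it ranged from 0.878 in steroidogenic and 0.924 in smooth muscle-like cells to 1.04 in granulosa-like, 1.09 in myeloid-like, 1.10 in stroma-like and 1.12 in endothelial-like cells. A wider gate for GCs, which asked only that the granulosa list exceed the lists outside the steroidogenic cells and that *Cyp17a1* be absent, held 3488, 3778 and 3921 cells and turned it again, with 266.4 in set 1 and 258.5 in set 3. The mt- level of set 3, by contrast, was below that of set 1 in every class, at 0.712-fold in steroidogenic, 0.811-fold in granulosa-like, 0.812-fold in stroma-like and smooth muscle-like, 0.823-fold in myeloid-like and 0.974-fold in endothelial-like cells. In the wider gate it was 462, 509 and 334 in sets 1, 2 and 3.

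The 13 mt- rows did not all differ between sets by the same ratio. Over all cells, *mt-Nd1*, a core subunit of complex I, stood at 28.7, 29.9 and 29.0 UMIs per 10000 in sets 1, 2 and 3 and was alone in not being lower in set 3 than in set 1. *mt-Cytb*, the mitochondrial subunit of complex III, stood at 41.7, 44.9 and 37.3, or 0.893-fold in set 3 over set 1. *mt-Co1*, the catalytic subunit of complex IV, stood at 67.1, 67.2 and 42.3, or 0.631-fold. In GRCm38 *mt-Nd1* lies at chrM:2751-3707 and *mt-Co1* at chrM:5328-6872, both on the plus strand.

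*mt-Atp6*, the proton channel subunit of complex V, had 98.8, 109 and 64.1 UMIs per 10000, and *mt-Co3* of complex IV had 92.5, 98.2 and 67.8. *mt-Co2* had 55.7, 57.6 and 37.0, *mt-Nd4* 32.5, 33.0 and 23.8 and *mt-Nd2* 13.1, 15.8 and 10.1. *mt-Nd5* had 7.18, 7.42 and 4.19, *mt-Nd4l* 3.65, 3.31 and 2.01 and *mt-Nd3* 3.07, 3.71 and 2.67. *mt-Nd6*, the only one of these genes on the other strand, had 1.10, 1.09 and 0.691, and *mt-Atp8* had 0.901, 0.905 and 0.425. The levels in sets 1 and 2 were close for most rows, with ratios of set 2 over set 1 between 0.906 for *mt-Nd4l* and 1.21 for *mt-Nd2* and *mt-Nd3*. The ratios of set 3 over set 1 ran from 0.472 for *mt-Atp8* to 1.01 for *mt-Nd1*. In the GENCODE annotation of GRCm38, *mt-Atp8* shares 43 bases with *mt-Atp6*, and *mt-Nd4l* shares 7 with *mt-Nd4*, so the split of their reads is uncertain. *mt-Nd5* shares 14 bases with *mt-Nd6* on the other strand, and whether the counting used strand is not given in the sources used here.

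**Figure D2:**
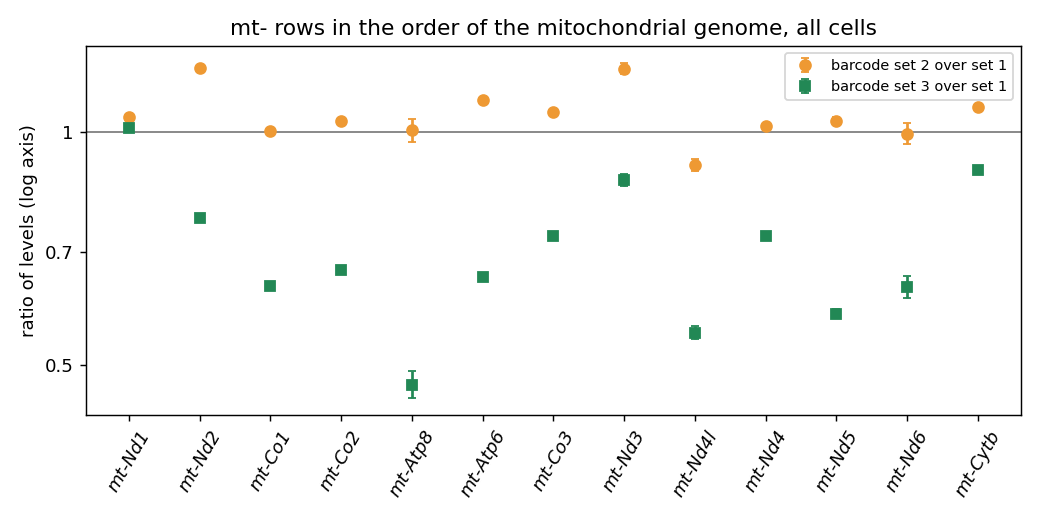
Ratio of the level in barcode set 2 (circles) or 3 (squares) to set 1 over all cells, on a log axis, for the 13 mt- rows in the order of the mitochondrial genome. Lines are 95% counting intervals; the set 2 ratios lie between 0.906 and 1.21, and those of set 3 between 0.472 for *mt-Atp8* and 1.01 for *mt-Nd1*.

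In granulosa-like cells the ratios of the mt- rows were spread in a similar way. The class itself differed between sets 1, 2 and 3, with *Amh* at 0.473, 0.477 and 1.47 UMIs per 10000. *Fshr* stood at 1.19, 0.792 and 0.236 and *Cyp19a1* at 1.28, 3.77 and 0.0658, and the part of this in the ratios was not tested. *mt-Nd1* had 26.4, 31.9 and 33.1 UMIs per 10000 in sets 1, 2 and 3, with set 1 the lowest. *mt-Cytb* had 39.9, 45.1 and 39.4, and *mt-Co1* 76.4, 79.4 and 54.1. Set 3 over set 1 was 0.989 for *mt-Cytb*, 0.708 for *mt-Co1*, 0.688 for *mt-Atp6* and 0.528 for *mt-Atp8*. By the threshold given below, 1 of 13 mt- rows was higher and 6 lower in set 3, against 20.1% and 27.9% of all genes compared, and 2 were higher (*mt-Nd2* at 1.38 and *mt-Nd3* at 1.40) and 0 lower in set 2, against 11.5% and 44.7%. The lowest of the 3 sets was set 3 for 11 rows in granulosa-like cells, for 11 in stroma-like cells and for all 13 in steroidogenic cells. In endothelial-like cells it was set 3 for 7 rows and set 1 for 6.

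The class differences of the mt- rows also depended on the gene. Against granulosa-like cells, *mt-Nd4* averaged 1.45-fold (1.62, 1.42 and 1.32 in sets 1, 2 and 3), *mt-Nd4l* 1.43-fold and *mt-Nd5* 1.39-fold in steroidogenic cells, whereas *mt-Co1* averaged 1.03-fold (1.05, 1.02 and 1.04). In stroma-like cells *mt-Co1* averaged 0.562-fold (0.581, 0.592 and 0.515) and *mt-Cytb* 0.866-fold (0.847, 0.895 and 0.855). In smooth muscle-like cells *mt-Co1* averaged 0.611-fold (0.618, 0.664 and 0.555) but *mt-Cytb* 1.22-fold (1.23, 1.31 and 1.14). *mt-Co1* was thus high in granulosa-like and steroidogenic cells, and in smooth muscle-like cells *mt-Co1* and *mt-Cytb* lay on opposite sides of the granulosa-like level. *mt-Nd6* was lowest in myeloid-like cells, at 0.373-fold (0.328, 0.482 and 0.329).

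Among the nuclear rows, more were low in set 2 than high, as over the whole table. A row was called higher where its level was over 25% above the other and lower where it was under 0.8 of it, among rows with at least 500 UMIs in the groups compared. In set 2 over set 1, over all cells, 2 of 94 nuclear rows were higher and 35 lower, against 12.3% and 46.1% of all 11412 genes compared. The median ratio was 0.843 for the nuclear rows and 0.822 for all genes. In set 3 over set 1, 12 were higher and 30 lower, against 21.8% and 35.2% of 11590 genes, with medians of 0.922 and 0.927. The 13 mt- rows had medians of 1.03 and 0.664 in these comparisons, with 0 and 10 of them lower. The nuclear rows thus had medians close to those of the table in both comparisons, and the mt- rows had a median above it in set 2 and below it in set 3.

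In granulosa-like cells 84 nuclear rows could be compared. In set 2 over set 1, 2 were higher and 20 lower, against 11.5% and 44.7% of 6017 genes. In set 3 over set 1, 17 were higher and 11 lower, against 20.1% and 27.9% of 5271 genes. The wider gate for GCs gave 7 of 92 higher and 25 lower in the last comparison, against 24.0% and 30.3% of 8799 genes, so its balance depends on which GCs are taken. By complex as named, 4 of 8 rows of complex III and 5 of 17 of complex V were higher in set 3, against 6 of 38 of complex I and 1 of 11 of complex IV, while all 4 subunits of complex II were lower in set 2. *Ndufa4*, now assigned to complex IV, is counted here in complex I by its name and is among its higher rows.

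**Figure D3:**
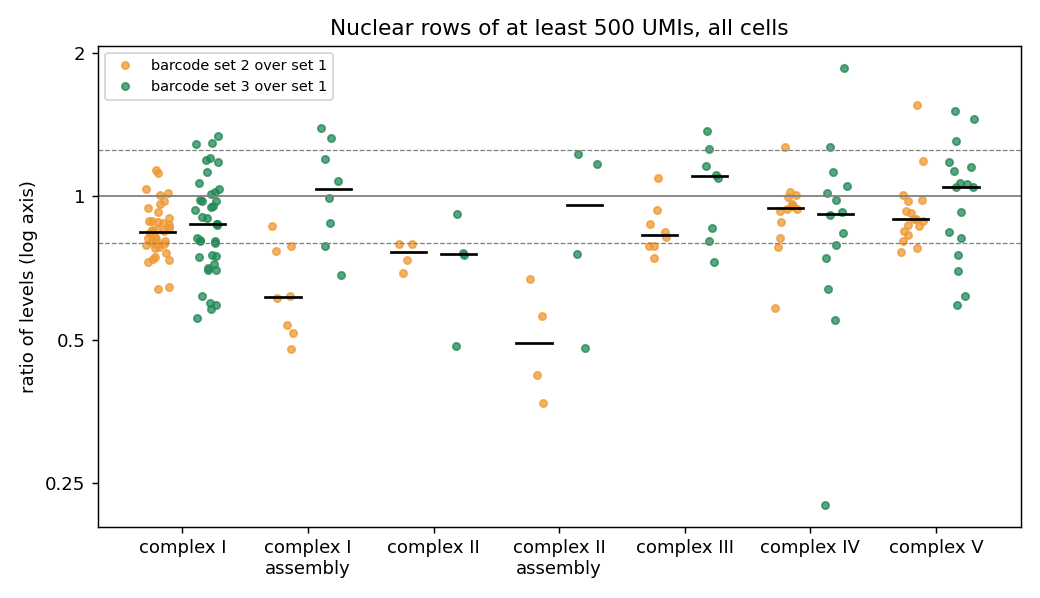
Ratio of the level in barcode set 2 or 3 to set 1 over all cells, on a log axis, for the nuclear rows with at least 500 UMIs, grouped by complex and assembly factors. Points are rows, black bars medians and dashed lines the threshold for a call in either direction; the assembly factors in set 2 lie lowest, and *Cox5a* at 1.86 and *Cox7a1* at 0.225 are the outermost rows of set 3.

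Over all cells the assembly factors had a lower ratio of set 2 over set 1 than the subunits. These proteins help to build complexes I and II and are not part of them. Their summed level in set 2 was 0.600-fold that in set 1 over all cells (0.590 to 0.611) and 0.612-fold in granulosa-like cells (0.587 to 0.638), whereas that of the nuclear subunits was 0.901-fold (0.899 to 0.903) and 0.930-fold. The classes differed, with 0.474-fold in steroidogenic and 0.727-fold in stroma-like cells but 0.911-fold in endothelial-like (0.846 to 0.982) and 0.955-fold in both smooth muscle-like and myeloid-like cells, where the intervals held 1. Over all cells all 12 were below 1, and 11 were called lower, against 46.1% of all genes. *Sdhaf4*, a factor for the flavoprotein subunit SDHA of complex II, had 1.06, 0.391 and 0.510 UMIs per 10000 in sets 1, 2 and 3. *Sdhaf1*, a factor for the iron-sulfur subunit SDHB, had 0.392, 0.165 and 0.482, and *Ndufaf1* of complex I had 0.200, 0.0959 and 0.176. *Sdhaf4* was thus low in both sets 2 and 3, while *Sdhaf1* and *Ndufaf1* were lowest in set 2 and nearer to set 1 in set 3. *Ndufaf2* was the mildest, at 0.404, 0.351 and 0.435, a ratio of 0.867 in set 2. In set 3 the summed level of the assembly factors was 0.986-fold that of set 1, with 2 rows higher (*Ndufaf8*, 1.39-fold, and *Ndufaf4*, 1.33-fold) and 4 lower of 12, near the 21.8% and 35.2% of all genes. The median ratio of the assembly factors in set 2 was 0.586, beside 0.822 over all genes compared.

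Complex II, with all 4 subunits lower in set 2, also had the row with the largest deficit of set 3 in granulosa-like cells, among nuclear rows with at least 500 UMIs. *Sdhd*, a membrane anchor of the complex, had 0.646, 0.459 and 0.288 UMIs per 10000 there, or 0.445-fold in set 3 over set 1. It had 0.567, 0.443 and 0.278 in steroidogenic and 0.420, 0.396 and 0.242 in stroma-like cells. *Sdhd* was lowest in set 3 in all 6 classes. Over all cells *Sdha*, the flavoprotein, had 1.19, 0.822 and 0.898, *Sdhb* 1.28, 0.939 and 1.17 and *Sdhc* 1.04, 0.824 and 0.787. In set 3 over set 1 *Sdhd* was 0.486-fold and *Sdhb*, the mildest, 0.918-fold.

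In complex I the nuclear rows with the lowest ratios of set 3 over set 1 were *Ndufb3*, *Ndufs3* and *Ndufc2*. *Ndufb3*, an accessory subunit, had 1.49, 1.26 and 0.825 UMIs per 10000 over all cells, *Ndufs3*, a core subunit, 1.74, 1.11 and 1.01, and *Ndufc2*, an accessory subunit, 3.83, 3.05 and 2.27. All 3 were lower in both set 2 and set 3 than in set 1. *Ndufa4*, named for complex I and now assigned to complex IV, had 9.18, 7.77 and 11.1 over all cells and 7.49, 6.92 and 10.7 in granulosa-like cells.

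In complex III, *Uqcrq* had 3.50, 2.94 and 4.80 UMIs per 10000 over all cells and *Uqcrc1*, a core protein, 1.14, 0.896 and 1.44, or 1.37-fold and 1.26-fold in set 3. *Uqcrc2*, the partner core protein, had 1.55, 1.15 and 1.13, or 0.726-fold. The core proteins thus differed in direction in set 3, and in set 2 both were low, at 0.786 and 0.743.

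*Cox5a*, a subunit of complex IV, was the nuclear row with the largest ratio of set 3 over set 1 among those with at least 500 UMIs. It had 5.33, 5.08 and 9.92 UMIs per 10000 over all cells, 1.86-fold in set 3 over set 1 (1.84 to 1.88). It had 4.76, 4.79 and 8.29 in granulosa-like, 6.20, 6.03 and 12.3 in steroidogenic and 4.38, 4.46 and 8.84 in stroma-like cells. Sets 1 and 2 were close in each of these classes and set 3 was higher. In endothelial-like cells it had 5.49, 5.72 and 8.17, in smooth muscle-like cells 6.77, 7.94 and 8.59 and in myeloid-like cells 8.27, 7.40 and 9.42. The ratio of set 3 to set 1 was thus above 1 in all 6 classes, from 1.14 in myeloid-like to 2.02 in stroma-like cells. *Cox5b*, a further subunit of complex IV, had 3.67, 3.24 and 3.60 over all cells.

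Complex V held 2 more rows that were high outside set 1. *Atp5d*, the delta subunit of the rotor stalk, had 4.18, 6.52 and 6.07 UMIs per 10000 over all cells. Its ratio of set 2 over set 1 was the largest among the nuclear rows with at least 500 UMIs, at 1.56 (1.54 to 1.58). In steroidogenic cells it had 4.85, 9.88 and 6.71, in granulosa-like cells 3.77, 6.29 and 4.55 and in stroma-like cells 3.96, 5.18 and 7.16. The set with the highest level was thus set 2 in steroidogenic and granulosa-like cells and set 3 in stroma-like cells. *Atp5mpl*, a small membrane subunit, had 1.94, 2.30 and 2.94 over all cells and followed the order of the sets from 1 to 3 in granulosa-like, steroidogenic, stroma-like, endothelial-like and myeloid-like cells.

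The c subunits, which form the ring of the rotor, are encoded by 3 genes that differ in their import sequences and give the same mature protein, and these genes differed in set 3. *Atp5g1* had 3.31, 2.97 and 4.34 UMIs per 10000 over all cells, *Atp5g2* 6.07, 5.28 and 3.58 and *Atp5g3* 5.57, 4.26 and 3.45. In set 3 over set 1, *Atp5g1* was 1.31-fold, *Atp5g2* 0.591-fold and *Atp5g3* 0.618-fold. *Atp5g1* was thus higher and its paralogues lower in set 3. In granulosa-like cells *Atp5g1* had 3.05, 3.02 and 5.13, *Atp5g2* 7.08, 6.08 and 5.15 and *Atp5g3* 5.05, 4.57 and 4.20. In steroidogenic cells *Atp5g3* had 8.50, 6.46 and 3.91 and *Atp5g1* 3.83, 3.28 and 3.88. In stroma-like cells *Atp5g1* had 2.98, 2.94 and 4.81 and *Atp5g3* 3.08, 2.77 and 2.94. *Atp5g2* was lowest in set 3 in all 6 classes, while *Atp5g1* was highest there in all 6, in steroidogenic cells by a small margin (3.83 in set 1 and 3.88 in set 3).

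**Figure D4:**
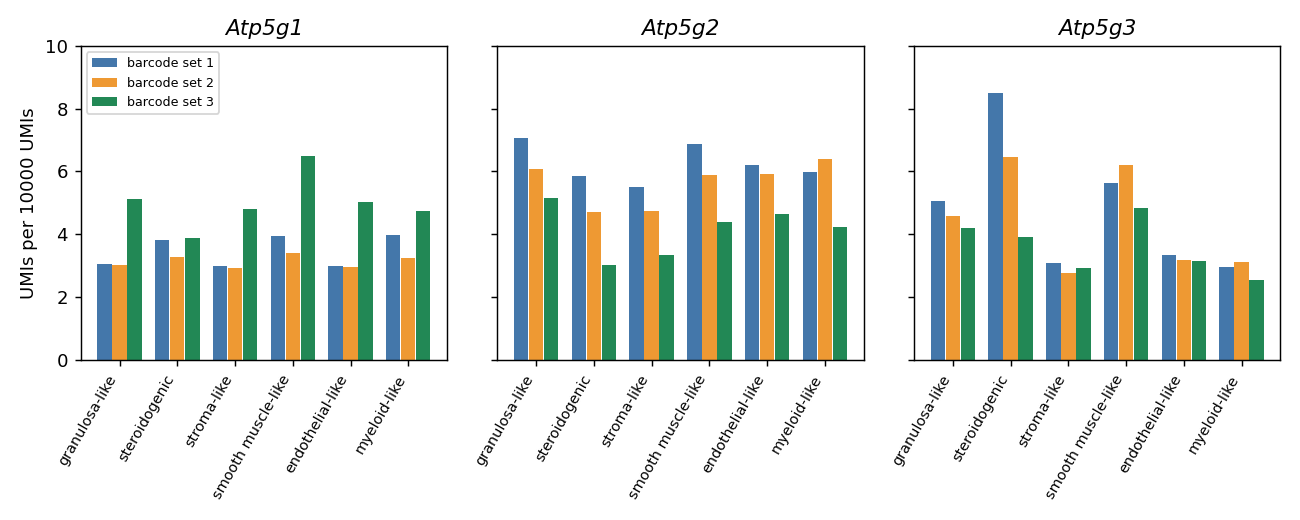
Level in UMIs per 10000 UMIs of the c subunit genes *Atp5g1*, *Atp5g2* and *Atp5g3* in 6 classes and barcode sets 1, 2 and 3 (bars, pooled over cells). *Atp5g1* is highest in set 3 in each class, *Atp5g2* is lowest in set 3 in each class, and *Atp5g3* is highest in steroidogenic cells of set 1 at 8.50.

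The 250 bases before the RefSeq start of the c subunit genes and of *Cox5a* and *Cox7a1*, the outermost rows of set 3, are shown to let their promoters be compared. They are given from 5′ to 3′ on the strand of the gene in GRCm38.p6, at chr11:96075632-96075881 (minus strand) for *Atp5g1*, chr15:102671048-102671297 (minus) for *Atp5g2*, chr2:73911327-73911576 (minus) for *Atp5g3*, chr9:57520982-57521231 (plus) for *Cox5a* and chr7:30183921-30184170 (plus) for *Cox7a1*. Capitals mark matches on either strand to CCAAT, to GGGCGG (GC box), to CCGGAAG (ETS), to GCATGCGC (NRF-1), to AAGATGG (YY1) or to TGACGTCA (CRE).
Atp5g1: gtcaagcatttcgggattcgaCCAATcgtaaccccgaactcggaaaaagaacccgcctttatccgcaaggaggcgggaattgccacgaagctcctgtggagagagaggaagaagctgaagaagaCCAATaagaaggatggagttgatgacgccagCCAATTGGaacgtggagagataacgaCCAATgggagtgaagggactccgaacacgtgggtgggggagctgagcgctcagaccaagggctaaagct
Atp5g2: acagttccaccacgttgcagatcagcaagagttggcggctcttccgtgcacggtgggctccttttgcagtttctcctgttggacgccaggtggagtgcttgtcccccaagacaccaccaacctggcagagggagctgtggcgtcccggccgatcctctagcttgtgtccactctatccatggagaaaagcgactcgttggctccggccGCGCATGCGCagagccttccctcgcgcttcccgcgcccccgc
Atp5g3: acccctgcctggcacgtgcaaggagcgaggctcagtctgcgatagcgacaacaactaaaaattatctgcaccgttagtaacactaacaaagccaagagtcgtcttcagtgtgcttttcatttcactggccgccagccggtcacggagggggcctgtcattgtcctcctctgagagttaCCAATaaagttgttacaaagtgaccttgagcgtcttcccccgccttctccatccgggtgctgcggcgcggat
Cox5a: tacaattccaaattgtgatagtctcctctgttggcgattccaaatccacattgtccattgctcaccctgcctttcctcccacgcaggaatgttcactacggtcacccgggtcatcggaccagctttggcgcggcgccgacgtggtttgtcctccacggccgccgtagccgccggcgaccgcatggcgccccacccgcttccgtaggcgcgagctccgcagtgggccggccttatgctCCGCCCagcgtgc
Cox7a1: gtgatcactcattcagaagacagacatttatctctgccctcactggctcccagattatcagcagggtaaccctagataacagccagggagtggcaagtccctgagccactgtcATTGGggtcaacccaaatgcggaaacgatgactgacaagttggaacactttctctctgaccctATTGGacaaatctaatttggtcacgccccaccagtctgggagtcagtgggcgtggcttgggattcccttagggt

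The paralogues did not carry the same letters. The *Atp5g1* window had 5 matches to CCAAT, 2 of them overlapping on opposite strands, against 1 for *Atp5g3*, 0 for *Atp5g2*, 0 for *Cox5a* and 2 for *Cox7a1*. The *Atp5g2* window had 2 overlapping matches to the NRF-1 letters, which the other 4 windows lacked, and the *Cox5a* window had 1 GC box. Over all 32851 windows of this length, 33.8% held CCAAT, 32.7% GGGCGG, 6.91% CCGGAAG, 4.49% AAGATGG, 2.26% GCATGCGC and 1.55% TGACGTCA. Of the 98 nuclear rows 79 had a window, and of these 44.3% held CCAAT, 43.0% GGGCGG, 19.0% CCGGAAG, 11.4% GCATGCGC and 5.06% TGACGTCA, with 0 for AAGATGG. A match is a run of letters and was not tested as a binding site. The windows end at the RefSeq start, so letters at or after it were not counted.

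The classes differed in single nuclear rows far more than in their sums. All of the following ratios share the granulosa-like cells as denominator and are averages of 3 within-set ratios. In steroidogenic cells 22 of 93 nuclear rows were higher and 8 lower, against 19.5% and 33.2% of 9143 genes. In stroma-like cells 5 of 93 were higher and 42 lower, against 27.0% and 30.5% of 10223 genes. In smooth muscle-like cells 45 of 88 were higher and 6 lower, against 19.5% and 46.0% of 7211 genes. In endothelial-like cells 3 of 90 were higher and 23 lower, against 28.5% and 34.4% of 8229 genes, and in myeloid-like cells 9 of 87 were higher and 36 lower, against 17.5% and 59.6% of 7211 genes. The median of the nuclear subunits was 1.06 in steroidogenic, 0.801 in stroma-like, 1.27 in smooth muscle-like, 0.887 in endothelial-like and 0.855 in myeloid-like cells, and that of all genes 0.916, 0.965, 0.838, 0.946 and 0.703. The subunits had their highest median in smooth muscle-like cells, with 7 of 8 rows of complex III and 9 of 12 of complex IV higher. The gap to all genes there and in myeloid-like cells may be widened by the filter. In stroma-like and endothelial-like cells the subunits had a median below that of all genes. Other genes also differed between the classes. *Malat1* averaged 2.22-fold in steroidogenic, 2.02-fold in stroma-like and 2.28-fold in smooth muscle-like cells, and *Neat1* 2.24-fold, 1.35-fold and 0.732-fold. In endothelial-like and myeloid-like cells *Malat1* averaged 0.929-fold and 0.755-fold and *Neat1* 0.777-fold and 1.79-fold. Of 80 cytosolic ribosomal proteins 0 were higher and 36 lower in steroidogenic, 8 higher and 2 lower in stroma-like and 0 higher and 63 lower in smooth muscle-like cells, with 0 and 11 in endothelial-like and 1 and 38 in myeloid-like cells. Of the 8 genes of the dissociation response 5 were higher and 0 lower in steroidogenic, 5 and 0 in stroma-like cells, 4 and 1 in smooth muscle-like cells, 4 and 4 in endothelial-like cells and 4 and 3 in myeloid-like cells. The part of these in the ratios was not tested.

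In smooth muscle-like cells the largest ratios of the common subunits belonged to complexes I and II. *Ndufb10*, an accessory subunit of complex I, had 2.95, 2.99 and 3.41 UMIs per 10000 in sets 1, 2 and 3 and averaged 2.20-fold over granulosa-like cells (1.81, 2.40 and 2.44). *Ndufa13*, a further accessory subunit, had 4.51, 5.21 and 4.62 against 2.30, 2.25 and 2.64 in granulosa-like cells, and *Sdhc*, a membrane anchor of complex II, averaged 2.16-fold (2.36, 2.94 and 1.45). All 3 were higher in each set.

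*Ndufs4*, an accessory subunit that holds the NADH-oxidizing end of complex I in place, marked granulosa-like cells. It had 3.50, 3.73 and 2.27 UMIs per 10000 there, 1.83, 1.85 and 1.58 in steroidogenic and 0.970, 0.989 and 0.988 in stroma-like cells. The endothelial-like cells had 1.05, 1.30 and 1.01, the myeloid-like 0.949, 1.04 and 1.00 and the smooth muscle-like 1.47, 1.68 and 1.13. The granulosa-like level was above that of the other 5 classes in each of the 3 sets. Against it the other classes averaged 0.565-fold in steroidogenic, 0.456-fold in smooth muscle-like, 0.359-fold in endothelial-like, 0.323-fold in myeloid-like and 0.318-fold in stroma-like cells. *Ndufa5*, a further accessory subunit, was also lower than in granulosa-like cells in stroma-like (0.595-fold), endothelial-like (0.640-fold), steroidogenic (0.672-fold) and myeloid-like cells (0.474-fold), but averaged 1.09-fold in smooth muscle-like cells. *Atp5j*, the coupling factor 6 subunit of complex V, averaged 0.530-fold in stroma-like and 0.507-fold in myeloid-like cells.

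Endothelial-like cells were set apart by *Ndufa8*, a subunit of the membrane arm, which had 4.69, 4.56 and 5.70 UMIs per 10000 there and 2.71, 1.84 and 2.41 in granulosa-like cells. Its ratio averaged 2.17 (1.73, 2.48 and 2.36). In myeloid-like cells *Ndufv3* had the largest ratio of the complex I subunits, at 1.63 (1.42, 1.70 and 1.81). *Sdhaf1* was above the granulosa-like level in steroidogenic (1.65-fold), stroma-like (1.94-fold), smooth muscle-like (2.47-fold) and endothelial-like cells (1.98-fold) in all 3 sets, and in myeloid-like cells in 2 of 3. Its counts were low, with 684 UMIs in myeloid-like and granulosa-like cells together.

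The sharpest class differences lay in paralogues, the tissue forms of a subunit. *Ndufa4l2*, a paralogue of *Ndufa4* known to be induced in hypoxia, had 9.65, 9.33 and 5.98 UMIs per 10000 in smooth muscle-like cells and 0.0368, 0.0536 and 0.0593 in granulosa-like cells. Myeloid-like cells had 0, 2 and 0 UMIs of *Ndufa4l2* in all, and the highest level in any other class was 0.196, in stroma-like cells of set 1. The within-set ratios over granulosa-like cells were 262, 174 and 101. The granulosa-like levels are low and the part of free RNA in them was not measured, so the size of the ratio is not firm. *Ndufa4* itself was lowest in the smooth muscle-like cells, at 6.45, 6.16 and 5.22 against 10.6, 10.9 and 11.8 in endothelial-like cells. Smooth muscle-like cells were thus the highest class for *Ndufa4l2* and the lowest for *Ndufa4*.

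*Cox4i2*, the form of the regulatory subunit IV of complex IV that is known from lung and smooth muscle, had 5.94, 4.69 and 3.34 UMIs per 10000 in smooth muscle-like cells. It had 0.256, 0.132 and 0.0568 in granulosa-like cells, 0.0212, 0.0151 and 0.0259 in endothelial-like cells and 0, 3 and 1 UMIs in all in myeloid-like cells. The ratio of smooth muscle-like to granulosa-like cells averaged 36.5 (23.2, 35.6 and 58.8), over low granulosa-like levels in which the part of free RNA was not measured. In set 1 the granulosa-like level lay above that over all cells (0.1655), and in sets 2 and 3 below it (0.1557 and 0.0911). The granulosa-like level lay above that of endothelial-like cells in each set. *Cox4i1*, the common form, had 13.7, 13.8 and 12.6 in smooth muscle-like and 10.9, 11.2 and 10.6 in granulosa-like cells, so the common form was not lower where *Cox4i2* was high.

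*Cox6b2*, known from testis, was highest in stroma-like cells, at 0.610, 0.765 and 0.630 UMIs per 10000, and next in smooth muscle-like cells, at 0.536, 0.484 and 0.430. Granulosa-like cells had 0.114, 0.0998 and 0.138 and endothelial-like cells 0.0333, 0.0541 and 0.0185. Stroma-like cells averaged 5.72-fold over granulosa-like cells (5.35, 7.67 and 4.57), whose levels are low, and the part of free RNA in them was not measured. The common form *Cox6b1* was lower in stroma-like than in granulosa-like cells, with 2.96, 3.02 and 3.90 in stroma-like and 3.65, 3.96 and 4.39 in granulosa-like cells.

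**Figure D5:**
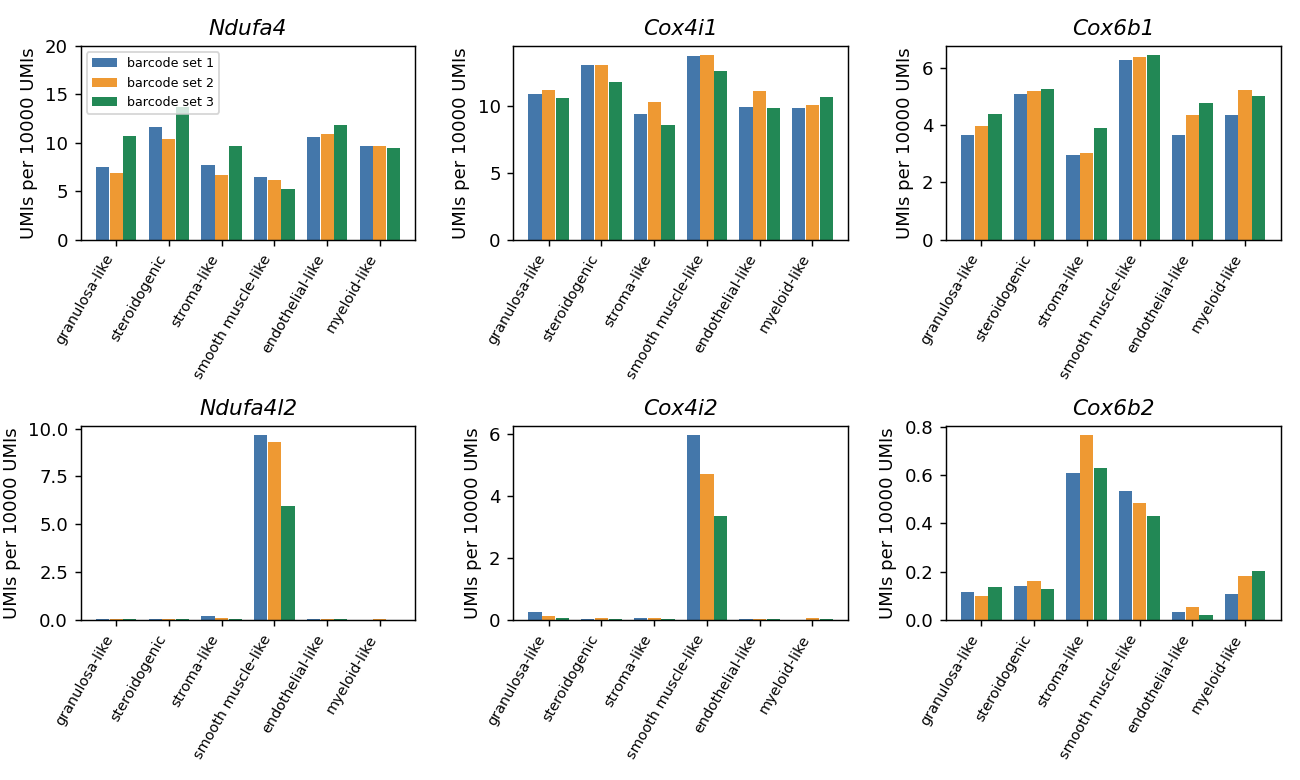
Level in UMIs per 10000 UMIs of the common forms *Ndufa4*, *Cox4i1* and *Cox6b1* (top) and of *Ndufa4l2*, *Cox4i2* and *Cox6b2* (bottom) in 6 classes and barcode sets 1, 2 and 3, each panel with its own axis from 0. *Ndufa4l2* and *Cox4i2* reach 9.65 and 5.94 in smooth muscle-like cells and stay below 0.3 in the other classes, and *Cox6b2* is highest in stroma-like cells.

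*Cox7a1*, the heart and muscle form of subunit VIIa, was highest in steroidogenic cells. It had 0.252, 0.239 and 0.0608 UMIs per 10000 in steroidogenic and 0.0358, 0.0281 and 0.0310 in granulosa-like cells, and smooth muscle-like cells had 0.0893, 0.0358 and 0.0297, from 4, 2 and 2 UMIs in all. The ratio averaged 4.89 (7.02, 8.49 and 1.96). All of these levels are low, and the part of free RNA in them was not measured. The *Cox7a1* level over all cells was 0.107, 0.0626 and 0.0241, below the steroidogenic level of each set and 0.225-fold in set 3 over set 1. The *Cyp17a1* level in steroidogenic cells was also lowest in set 3. *Cox6a1*, the common form of subunit VIa, was likewise high in steroidogenic cells, at 5.97, 4.59 and 4.10 against 2.86, 2.67 and 2.43 in granulosa-like cells.

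*Cox7a2*, the common form, had 5.72, 5.36 and 6.16 UMIs per 10000 in granulosa-like cells. *Cox7a2l*, which takes part in joining complexes III and IV, had 4.71, 3.97 and 2.97 there and was 0.632-fold in set 3 over set 1. *Cox7a2l* was also lower in set 3 in steroidogenic (0.745-fold), stroma-like (0.548-fold) and endothelial-like cells (0.626-fold), while in myeloid-like cells it had 3.25, 2.99 and 3.06. The 4 rows under 500 UMIs were all of complex IV. *Cox6a2*, the muscle form of subunit VIa, had 37 UMIs in 27 cells, *Cox8b* 29 in 28 cells, *Cox8c* 19 in 15 cells and *Cox7b2* 10 in 10 cells, and no ratio is given for them. *Cox8a* and *Cox7b*, the common forms, were seen in 30227 and 23212 cells.

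In dividing granulosa-like cells, with at least 3 mitotic markers (311, 274 and 289 cells), the 2 genomes again differed in direction. Their nuclear level was 276, 266 and 271 against 252, 232 and 271 in the other granulosa-like cells, and their mt- level was 402, 459 and 338 against 473, 525 and 388. The mt- UMIs per nuclear UMI averaged 0.804-fold those of the other cells (0.777, 0.766 and 0.872). The mt- level was lower in all 3 sets, at 0.866-fold (0.851, 0.875 and 0.872), and the nuclear level was higher in sets 1 and 2 and equal in set 3 (1.10, 1.14 and 0.999). By the same threshold, 9 of 87 nuclear rows were higher and 1 lower, against 13.9% and 18.6% of 6985 genes. The highest were *Cox4i2* (1.58), *Ndufaf2* (1.38), *Cox5a* (1.35) and *Cox7a2* (1.33), and the lowest was *Ndufa6* (0.789). *Cox4i2* had low levels in granulosa-like cells, and the part of free RNA in them was not measured. Among mt- rows *mt-Nd1* differed least, at 1.01, and *mt-Co3* most, at 0.823. The dividing cells were deeper, with median depths of 9473, 11972 and 11929 UMIs against 5396, 6523 and 6443, *Malat1*, *Neat1* and all 8 genes of the dissociation response were called lower in them, and the part of these in the differences was not tested.

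Within granulosa-like cells, single cells with a higher nuclear level tended to have a lower mt- level. Over cells the rank correlation was -0.400, -0.269 and -0.189 in sets 1, 2 and 3, and in endothelial-like cells it was -0.264, -0.227 and -0.213. In steroidogenic cells it was 0.149, 0.237 and 0.222 and in smooth muscle-like cells 0.277, 0.185 and 0.264, so these classes had the opposite sign. In stroma-like cells it was close to 0, at 0.0483, 0.0671 and -0.0416, and in myeloid-like cells its sign was mixed, at -0.114, 0.127 and 0.348. Both values of a cell share its total UMIs, and the cells of a set share a library, so these values are a description. The rank correlation of depth with the mt- level was -0.217, -0.096 and -0.283 in granulosa-like cells, and with the nuclear level 0.122, 0.205 and -0.0437. In steroidogenic cells these were 0.159, 0.203 and 0.0459 for mt- and 0.275, 0.361 and -0.11 for nuclear rows. In smooth muscle-like cells they were 0.116, 0.175 and -0.168 for mt- and 0.279, 0.418 and 0.162 for nuclear rows. The part of depth in the correlations between the 2 levels was not tested.

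Genes of other mitochondrial functions, taken from fixed lists, were compared in the same way, over all cells, where 12.3% of all genes were higher and 46.1% lower in set 2 over set 1 and 21.8% higher and 35.2% lower in set 3. Mitochondrial ribosomal proteins, which translate the mt- mRNAs, had 0 of 78 higher and 60 lower in set 2 and 23 higher and 8 lower in set 3, with medians of 0.712 and 1.13. Their summed level in granulosa-like cells was 0.747-fold in set 2 and 1.09-fold in set 3, so they were lowest in the set in which the mt- rows were highest. Of the 12 genes of the TCA cycle, 0 were higher and 5 lower in set 2 and 0 and 4 in set 3, close to the shares of lower genes in the table. Of the 7 carriers and membrane proteins, 1 was higher and 1 lower in set 2 and 2 higher and 0 lower in set 3. *Ucp2*, an uncoupling protein family member, was 0.113-fold in stroma-like and 0.277-fold in steroidogenic cells relative to granulosa-like cells and 2.03-fold in myeloid-like cells. Of the 14 other respiratory chain genes, 0 were higher and 12 lower in set 2 and 3 higher and 7 lower in set 3, and *Cycs*, cytochrome c, had 2.81, 3.43 and 4.41 UMIs per 10000 over all cells. Of the 10 genes of biogenesis and mtDNA expression 8 could be compared, with 0 higher and 6 lower in set 2 and 1 higher and 3 lower in set 3. *Tfam*, which packs mitochondrial DNA and takes part in its transcription, had 0.356, 0.267 and 0.296, an order of the sets that was not that of the mt- rows.

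Markers of RNA quality and of dissociation also differed between the sets. *Malat1*, a nuclear RNA, had 275, 277 and 193 UMIs per 10000 over all cells and *Neat1* had 3.56, 6.55 and 8.92. Of the 8 genes of the dissociation response 3 were higher and 0 lower in set 2 and 2 higher and 0 lower in set 3, against the same shares of all genes as above. In granulosa-like cells 5 of 8 were higher and 0 lower in set 2, against 11.5% and 44.7% of all genes, and 2 of 7 were higher and 2 lower in set 3, against 20.1% and 27.9%. Cytosolic ribosomal proteins had 3 of 80 higher and 1 lower in set 2, and 6 higher and 9 lower in set 3. In granulosa-like cells they had 3 higher and 1 lower in set 2 and 20 higher and 2 lower in set 3, where their summed level was 1.16-fold that of set 1. The part of these in the levels of the nuclear and mt- rows was not tested.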

How the data were processed

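The authors deposited 1 table of 31776 cells and 24958 gene symbols in the natural log of 1 plus UMIs per 10000 UMIs of the cell. The submitters' processing notes name Cell Ranger, Seurat and mm10, with no versions. Back-transformed values summed to 10000 in each cell, and UMIs worked back from the steps were whole within 0.01 for 100% of 80167176 values. Cells had 500 to 133658 UMIs, with a median of 6347.5. Doublets were not called; an alternative leaves out the deepest 8% of cells of each set.

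Levels were UMIs summed over cells per 10000 UMIs. Intervals at 95% were exact Poisson for a level and exact conditional binomial for a ratio. Class ratios were geometric means of the 3 within-set ratios. The gate used lists of 4 to 11 markers for 11 classes, at least 3 detected and a margin of 0.15; 4111 ungated cells lay within 0.05 below it. Genes with at least 500 UMIs were compared, and called where a ratio was over 25% above 1 or under 0.8. The code for ratios was run on simulated Poisson counts, and that for gates on cells made only of the markers of a single class. These runs check the code and say nothing of the spread or mixing of these data. Members and gene lists were chosen with earlier results of these data known. Genes named in full are the mt- rows, the paralogue groups and up to 5 nuclear rows of largest ratio in each direction per comparison, with further members given for their complex; members of highest and lowest level were not ranked, since levels are not per length; promoters were chosen after the values were seen. No test was run, since 3 libraries at 3 time points have no replicates and no map from cells to libraries. Python 3.11.15, numpy 2.4.6, scipy 1.17.1 and matplotlib 3.10.9 were used. Promoters came from RefSeq and mitochondrial positions from GENCODE (both GRCm38). The result of 1 row is not reported here.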

Additional observations from a re-analysis of the deposited data

Results flagged for a closer look

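The nuclear level differed between barcode sets in opposite directions in different classes. This difference between classes was not tested, since each set may be 1 library. In set 3 over set 1 the nuclear rows were lower in steroidogenic (0.878-fold) and smooth muscle-like cells (0.924-fold) and higher in granulosa-like (1.04-fold), myeloid-like (1.09-fold), stroma-like (1.10-fold) and endothelial-like cells (1.12-fold), each with a counting interval that left out 1. The granulosa-like direction turned with a wider gate for GCs, chosen after seeing the data, which had a nuclear level of 266.4 UMIs per 10000 in set 1 and 258.5 in set 3. In set 2 over set 1 they were higher in endothelial-like cells (1.04-fold) and lower in steroidogenic (0.878-fold), granulosa-like (0.925-fold) and stroma-like cells (0.952-fold).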

How the results depend on the processing

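No paired analysis was possible because the result comes from no test. Depth limits rows under 500 UMIs, and no replicate bounds a set ratio. The nuclear, mt- and mt- to nuclear ratios of steroidogenic, stroma-like and smooth muscle-like over granulosa-like cells were rerun. Raising the marker threshold to 2 UMIs moved none of them by more than the spread of the sets. Leaving out 1 barcode set cannot move a mean of 3 by more than their spread, so that outcome was fixed. Without sets 1, 2 and 3 in turn, the nuclear ratio was 1.079, 1.107 and 1.175 in steroidogenic cells. It was 0.8344, 0.8223 and 0.8117 in stroma-like and 1.285, 1.241 and 1.365 in smooth muscle-like cells. The other classes and single genes were not run. Leaving out cells over 10% mt- removed 0 cells.

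Nuclear set 2 over set 1 (0.896) was 0.911 as a mean over cells, 0.898 with totals without mt- rows, 0.893 in cells of at least 3000 UMIs and 0.887 without the deepest 8%. Nuclear set 3 over set 1 (0.956) was 1.02, 0.944, 0.950 and 0.984 in that order, the first of them reversed. The mt- set 2 over set 1 (1.06) was 1.08, 1.06, 1.06 and 1.07, and mt- set 3 over set 1 (0.721) was 0.767, 0.712, 0.714 and 0.736. Within the granulosa, steroidogenic, stroma, smooth muscle, endothelial and myeloid classes in turn, nuclear set 2 over set 1 was 0.925, 0.878, 0.952, 0.991, 1.04 and 0.983, nuclear set 3 over set 1 was 1.04, 0.878, 1.10, 0.924, 1.12 and 1.09, mt- set 2 over set 1 was 1.13, 1.03, 1.16, 1.23, 1.23 and 1.14, and mt- set 3 over set 1 was 0.811, 0.712, 0.812, 0.812, 0.974 and 0.823. Values across 1 were reversed, and the cause was not tested.

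The mt- level of stroma-like over granulosa-like cells (0.734) was 0.715 as a mean over cells, 0.714 without the deepest 8%, 0.715 at a gate margin of 0.3 and 0.750 with the wider GC gate. That of steroidogenic cells (1.18) was 1.30 at a margin of 0.3 and 1.36 with the wider gate, taking steroidogenic cells with at least 2 *Cyp17a1* UMIs, and their mt- to nuclear ratio (1.06) was 1.11 and 1.14. That of smooth muscle-like cells (0.962) reversed to 1.03 at a margin of 0.3. The wider gate was chosen after seeing the data.

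At 1.5-fold, the nuclear rows in granulosa-like cells numbered 1 higher and 3 lower in set 2, against 7.73% and 20.2% of all genes, and 2 higher and 7 lower in set 3, against 8.01% and 14.7%. Against granulosa-like cells they numbered 4 higher and 3 lower in steroidogenic (12.3% and 17.5% of all genes), 3 and 12 in stroma-like (18.7% and 18.3%) and 17 and 2 in smooth muscle-like cells (12.9% and 30.2%). The mean over cells gave 1 higher in set 2, in place of 2, and the wider gate 7 higher and 25 lower in set 3, in place of 17 and 11.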
